A study of Mus musculus with 6 samples.

Results

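The genes described here are 41 lysosomal genes of the mouse, chosen by name: 15 subunits and accessory proteins of the vacuolar ATPase (V-ATPase), 9 membrane proteins, 14 enzymes and 3 genes of mannose 6-phosphate sorting. All 41 were among the 49315 genes of the count table, and all 41 were among the 12274 that passed the filter on low counts. They were measured by RNA-seq of poly(A) RNA in RAW264.7 cells, a macrophage-like line of the mouse. One group of 3 libraries came from cells kept for 24 h with SKI-II at 4 μg/mL, and the other group of 3 from cells kept as long with the vehicle DMSO. SKI-II is known as an inhibitor of the lipid kinase that phosphorylates sphingosine. The libraries held 12495957 to 20050677 counts each, of which the 41 genes took 0.995 to 1.06% with DMSO and 0.877 to 0.963% with SKI-II. RAW264.7 is a single line. The study's methods refer the treatment for RNA-seq to that of the PCR assay, which was done with biological replicates, but how the cultures behind the 3 libraries of a group were kept apart is not described, and the p-values measure only the spread between these libraries.

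The lysosome is the compartment in which macrophages break down what they engulf. The V-ATPase acidifies it: its V1 sector in the cytosol hydrolyzes ATP, and its V0 sector in the membrane carries protons inward. Most lumenal enzymes work only at acid pH and reach the lysosome because they are tagged with mannose 6-phosphate in the Golgi and bound there by mannose 6-phosphate receptors. Heavily glycosylated membrane proteins line the inside of the limiting membrane, and transporters in it return the products of digestion to the cytosol. Many genes of the lysosome carry in their promoters an E-box known as the CLEAR element, which is bound by the transcription factor TFEB and its relatives.

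In the V-ATPase, 2 of 15 genes rose, 2 fell and 11 did not pass the test. Of the 9 membrane proteins, 4 rose and 2 fell. None of the 14 enzymes rose and 9 fell, while all 3 sorting genes fell. Here a gene rose or fell if its p from the quasi-likelihood test of edgeR was below 0.05 after Benjamini-Hochberg adjustment over all genes tested. In all, 6 of the 41 genes rose (14.6%) and 16 fell (39.0%), while 18.4% of all genes tested rose and 19.7% fell. With a log2 fold change above 1 as well, 1 of the 41 rose (2.44%), against 8.28% of all genes, and below -1, 5 fell (12.2%), against 7.44% of all genes. The median log2 fold change of the 41 genes was -0.02, and that of all genes tested was 0.00. The 3 SKI-II libraries were all higher than the 3 DMSO libraries for 9 of the 41 genes and all lower for 16, while 24.8% of all genes were separated upward and 25.5% downward. In bulk RNA, fewer cells of a type and less RNA per cell cannot be told apart.

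**Figure D1:**
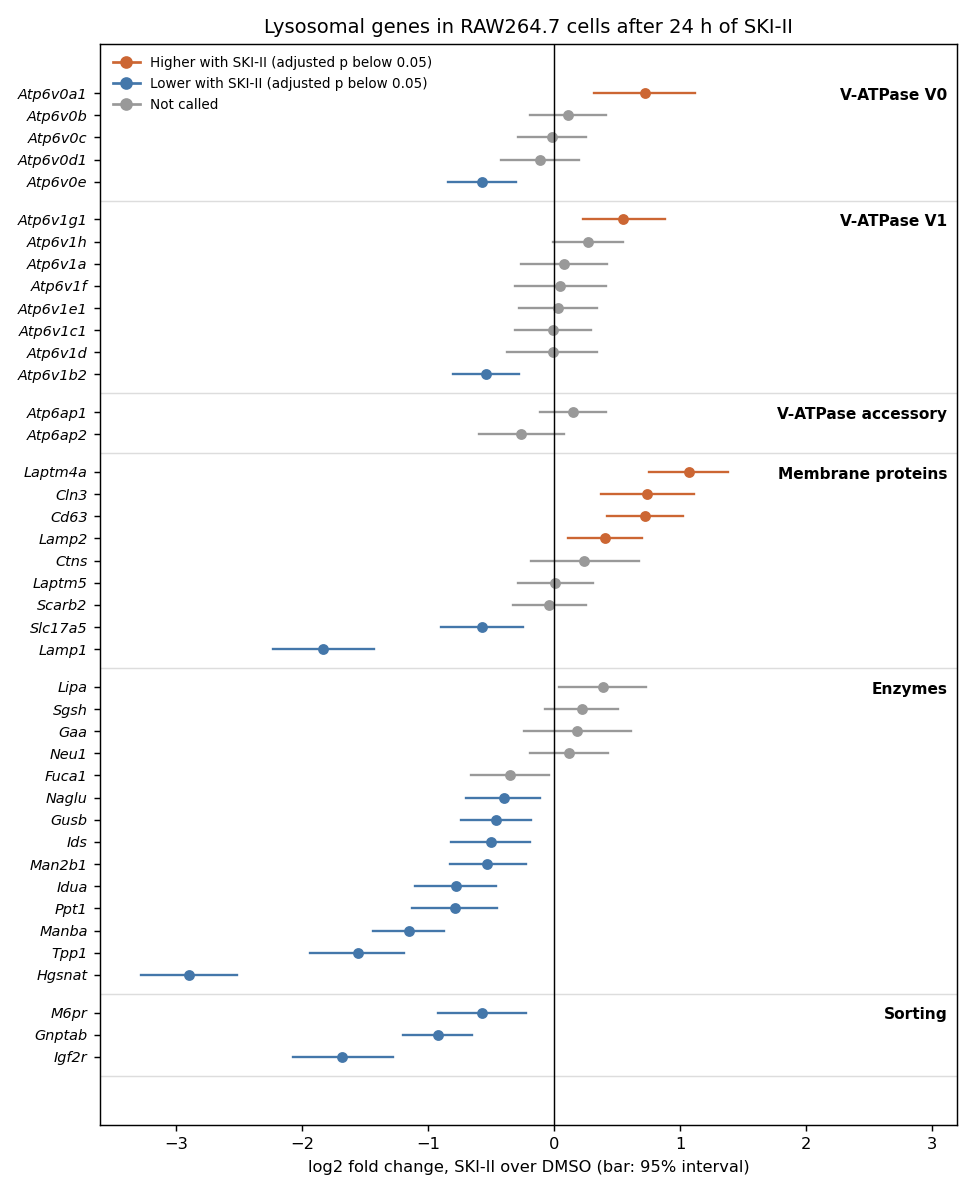
Each point is the log2 fold change of a gene with SKI-II over DMSO (x axis), with its 95% interval as a bar, in the groups named at the right (3 libraries per condition). The V-ATPase genes lie between -0.57 and 0.72, while the enzymes reach -2.90 and the membrane proteins run from -1.83 to 1.07.

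The macrophage identity of the cells and the absence of other cell types were checked with marker lists. Levels were scaled for length here, as CPM (counts per unit of library size) per kilobase of exon. The summed level of 9 macrophage markers was 5680 to 8690 with DMSO and 3140 to 4750 with SKI-II, and without Lyz2, lysozyme, it was 1390 to 1560 with DMSO and 1730 to 2020 with SKI-II. Among the 9 Fcgr1 and Cd14 rose, Adgre1, Itgam, Lyz2 and Mrc1 fell, and Csf1r, Spi1 and Cd68 did not pass the test. The summed levels of fibroblast, T cell and B cell markers were at most 0.204 in any library, and epithelial markers were at 0. RAW264.7 cells can become osteoclasts, which use the V-ATPase to acidify bone. Of 9 osteoclast markers, 6 were tested and 4 fell, and their summed level was 64.2 to 76.6 with DMSO and 33.8 to 36.1 with SKI-II, with Calcr, the calcitonin receptor, at 0 in all libraries. One of these markers, Atp6v0d2, is also a V-ATPase isoform described below, and without it the sum was 42.6 to 49.7 with DMSO and 25.2 to 28.4 with SKI-II. The part of these markers in the results below was not tested.

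Promoter sequence was available for 35 of the 41 genes, as RefSeq windows of 300 bases of GRCm38.p6 that span the start site. The 7 letters of the CLEAR-type E-box (TCACGTG on either strand, which includes the plain E-box CACGTG) stood in 10 of these 35 (28.6%), against 4.29% of the 27025 genes with a window. The 10 genes were spread over the outcomes: 1 of the 5 rising genes with a window, 4 of 13 falling genes and 5 of 17 genes that did not pass the test. The plain E-box was in the same number of members and in 8.09% of all genes. The core of the antioxidant response element, TGANNNNGC on either strand, was in 48.6% of the members and 45.0% of all genes. By outcome, this core stood in 4 of the 5 rising genes, 5 of 13 falling genes and 8 of 17 that did not pass. A link between these letters and the outcomes was not tested. The 100 bases upstream of the start site are printed for 4 genes of different outcome: Lamp1 and Igf2r, which fell and have several matches, Atp6v0b, which has matches and did not pass the test, and Lamp2, which rose and has no match in its window. The capitals mark the letters of TCACGTG or of its reverse complement.

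Lamp1: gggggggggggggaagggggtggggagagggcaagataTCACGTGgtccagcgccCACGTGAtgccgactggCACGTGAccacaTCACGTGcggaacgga

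Igf2r: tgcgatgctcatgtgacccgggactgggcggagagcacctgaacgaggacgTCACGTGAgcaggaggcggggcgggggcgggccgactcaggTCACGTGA

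Atp6v0b: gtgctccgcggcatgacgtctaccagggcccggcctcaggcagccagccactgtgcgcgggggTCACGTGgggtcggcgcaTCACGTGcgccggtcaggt

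Lamp2: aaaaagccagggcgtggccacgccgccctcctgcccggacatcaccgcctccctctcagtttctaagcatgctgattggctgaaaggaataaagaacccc

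On GRCm38.p6 these lie at chr8:13159061-13159160 (plus strand) for Lamp1, chr17:12769707-12769806 (minus strand) for Igf2r, chr4:117887330-117887429 (minus strand) for Atp6v0b and chrX:38456461-38456560 (minus strand) for Lamp2. RefSeq's start site was within 100 bases of the gene's start in GENCODE for these 4 and for 27 of the 35 members with a window, of which 7 (25.9%) had a match in that window. The other 7 members with a match in the whole window were Atp6v0d1, Atp6v0e, Atp6v1a, Cln3, Gaa, Naglu and Sgsh. A match of letters is not a binding site.

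Of the V-ATPase genes, those of the V0 sector had 1 gene higher, 1 lower and 3 that did not pass the test. Atp6v0a1 encodes an isoform of the large a subunit, which lines the proton path. Its normalized counts (counts scaled to a common library size) were 1859, 1624 and 1671 with DMSO and 3723, 2494 and 2280 with SKI-II. All SKI-II libraries were above the DMSO ones, with the first of them far above the others. The log2 fold change was 0.72 (SE 0.18, adjusted p = 0.0107 by edgeR), and 0.47 without that library (adjusted p = 0.0223 by edgeR). Atp6v0e, a small membrane subunit, had 2180, 2519 and 2609 normalized counts with DMSO and 1517, 1710 and 1696 with SKI-II. The groups did not overlap, and the log2 fold change was -0.57 (SE 0.12, adjusted p = 0.00463 by edgeR). The proteolipid ring genes Atp6v0b and Atp6v0c and the d subunit Atp6v0d1, which couples the ring to the rotor, had log2 fold changes of 0.11, -0.02 and -0.11. The value of Atp6v0c is uncertain, because its processed pseudogene Atp6v0c-ps2 holds a mean of 2949 normalized counts with DMSO against 824 for Atp6v0c itself, and reads can be shared between such copies. Atp6v0c-ps2 had a log2 fold change of -0.24 (adjusted p = 0.127 by edgeR).

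In the V1 sector, 1 of 8 genes rose, 1 fell and 6 did not pass the test. Atp6v1g1, a subunit of the peripheral stalks, had 3015, 3817 and 4250 normalized counts with DMSO and 5053, 5509 and 5678 with SKI-II, without overlap. Its log2 fold change was 0.55 (SE 0.15, adjusted p = 0.0142 by edgeR). Atp6v1b2, the B subunit that shares the nucleotide-binding sites with the catalytic A subunit, had 5866, 5621 and 5750 normalized counts with DMSO and 4225, 3633 and 3988 with SKI-II. It fell by 0.54 on the log2 scale (SE 0.12, adjusted p = 0.00535 by edgeR), with all SKI-II libraries below the DMSO ones. The catalytic subunit Atp6v1a had 11426, 12711 and 15505 normalized counts with DMSO and 15110, 13228 and 13510 with SKI-II, with overlapping groups and a log2 fold change of 0.08. The stalk subunits Atp6v1c1 and Atp6v1e1, the rotor subunits Atp6v1d and Atp6v1f, and the regulatory subunit Atp6v1h had log2 fold changes from -0.01 to 0.27. For Atp6v1h all SKI-II libraries were above the DMSO ones, at 2551, 2116 and 2010 normalized counts against 1761, 1822 and 1950, but its adjusted p of 0.118 by edgeR missed the threshold. The accessory proteins Atp6ap1, which takes part in assembly of the V0 sector, and Atp6ap2, the prorenin receptor, had log2 fold changes of 0.15 and -0.26, with overlapping groups.

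For the 11 V-ATPase genes that did not pass the test, the log2 fold changes lay between -0.26 and 0.27, and their 95% intervals all lay between -0.60 and 0.55. A missed threshold does not show that these genes stayed the same. Levels per kilobase differed widely among subunits, from 11.8 for Atp6v1h to 203 for Atp6v1g1 with DMSO. The median log2 fold change of the 15 genes was 0.03. None of these 15 genes had a log2 fold change above 1 or below -1 by edgeR, DESeq2 or limma-voom. Without DMSO replicate 2, 0 of the 15 passed the test upward, with log2 fold changes of 0.67 for Atp6v0a1 (adjusted p = 0.0517 by edgeR) and 0.57 for Atp6v1g1 (adjusted p = 0.0546 by edgeR), and the number of all genes that rose was 1507 in place of 2255. Both genes passed the test when any other library was left out.

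**Figure D2:**
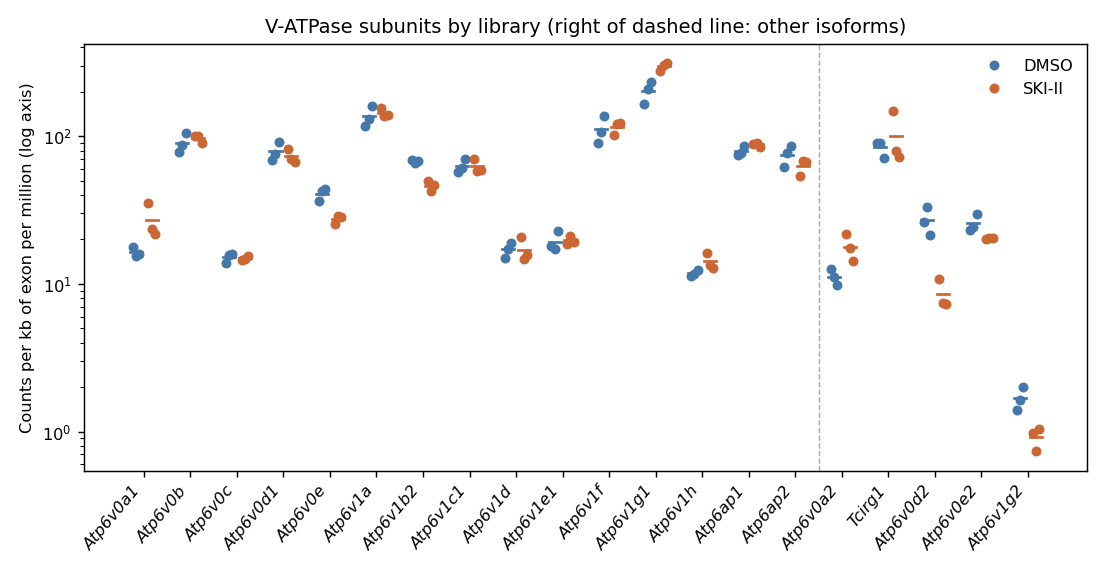
Each point is the level of a V-ATPase gene in a library, as CPM per kilobase of exon (log axis), with DMSO in blue and SKI-II in orange, and lines mark the mean of 3 libraries. Atp6v1g1 has the highest level in both groups, and among the isoforms right of the dashed line Atp6v0d2 drops from 27.1 to 8.56.

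The other V-ATPase genes gave the isoforms of the same subunits. Of 10 such isoforms, 5 were tested, of which 1 rose and 2 fell, with a median log2 fold change of -0.33. Atp6v0d2, the isoform of subunit d known from osteoclasts, had 1148, 1451 and 941 normalized counts with DMSO and 472, 325 and 321 with SKI-II. It fell by 1.66 on the log2 scale (SE 0.20, adjusted p = 0.000234 by edgeR). Atp6v0d1 held 72.5, 69.5 and 80.9% of the length-scaled level of subunit d with DMSO, and 88.4, 90.4 and 90.1% with SKI-II. These shares did not overlap, and their means were 74.3% ± 5.89 and 89.6% ± 1.11 (SD, n = 3, exact two-sided permutation p = 0.1). With 3 libraries against 3, 0.1 is the smallest p possible, and the same p was found for all 9 shares examined, so none could pass 0.05.

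In subunit a, Tcirg1, the osteoclast and immune cell isoform, was the most abundant isoform with and without SKI-II. Its normalized counts were 6692, 6609 and 5302 with DMSO and 10963, 5858 and 5374 with SKI-II, where the first SKI-II library stood apart as it did for Atp6v0a1. Atp6v0a2, the isoform known from the Golgi and endosomes, rose by a log2 fold change of 0.68 (SE 0.17, adjusted p = 0.0110 by edgeR). The mean share of Tcirg1 was 75.2% ± 1.76 with DMSO and 68.3% ± 3.41 with SKI-II (SD, n = 3). The share of Atp6v0a1 was 14.7% ± 1.51 and 18.9% ± 1.51, and Atp6v0a2 held the rest, at 9.55 to 10.5% and 10.6 to 14.6%, in the same order. In subunit e, Atp6v0e held 61.4% ± 1.94 and 57.4% ± 1.37, and Atp6v0e2 the rest. Atp6v1g2, known from neurons, fell by 0.88 on the log2 scale (adjusted p = 0.0367 by edgeR) but held only 0.822% of subunit G with DMSO and 0.307% with SKI-II. Of the factors of V-ATPase assembly and regulation, 8 of 9 were tested, of which Oxr1 rose (0.53) and Vma21 (-0.71), Ccdc115 (-0.54) and Dmxl1 (-0.48) fell, the values being log2 fold changes. Their median was -0.21.

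**Figure D3:**
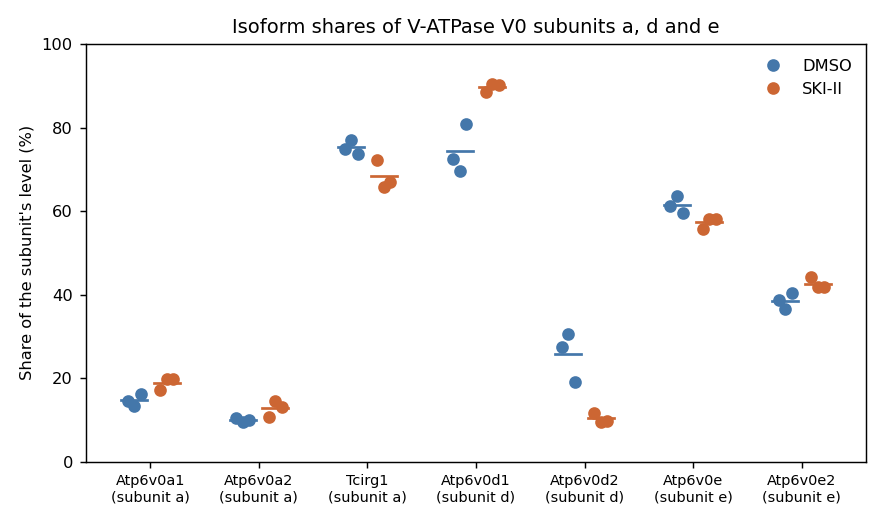
Each point is the share (%) that an isoform holds of the length-scaled level of its V0 subunit in a library (DMSO blue, SKI-II orange), and lines mark means of 3 libraries. Atp6v0d1 moves from 74.3 to 89.6% of subunit d and Atp6v0d2 from 25.7 to 10.4%, and the shares in subunits a and e move by less.

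The membrane proteins moved in opposite directions. Lamp1 and Lamp2 encode the most abundant glycoproteins of the lysosomal membrane, and Lamp2 also takes part in chaperone-mediated autophagy. Lamp1 had 11597, 13071 and 16577 normalized counts with DMSO and 4609, 3771 and 3230 with SKI-II. All SKI-II libraries were far below the DMSO ones: Lamp1 was 3.55-fold lower, with a log2 fold change of -1.83 (SE 0.18, adjusted p = 7.41e-05 by edgeR). Lamp2 had 4214, 4064 and 5158 normalized counts with DMSO and 5577, 6210 and 5983 with SKI-II. It rose by a log2 fold change of 0.40 (SE 0.13, adjusted p = 0.0368 by edgeR), without overlap of the groups. This call was lost when any of 4 of the libraries was left out (DMSO replicates 1 and 2, SKI-II replicates 2 and 3), with an adjusted p of up to 0.184. On the length-scaled level, Lamp1 was 9.83, 11.5 and 11.5 times Lamp2 with DMSO and 2.95, 2.17 and 1.93 times Lamp2 with SKI-II. On that scale Lamp1 remained the higher of the pair in all 6 libraries. The scale divides by all annotated exon bases, 2675 for Lamp1 and 9552 for Lamp2. In normalized counts, which are not divided by length, Lamp1 was below Lamp2 in each SKI-II library. Which mRNA was more abundant with SKI-II therefore depends on the length used.

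Laptm4a, Cd63 and Cln3 rose. Laptm4a, a small protein of late endosomes and lysosomes, had 1960, 2018 and 2637 normalized counts with DMSO and 4730, 4295 and 4857 with SKI-II. It was the only one of the 41 genes to rise past a log2 fold change of 1, at 1.07 (SE 0.14, adjusted p = 0.000376 by edgeR), and at 0.98 without DMSO replicate 1. Cd63, a tetraspanin of late endosomes, lysosomes and exosomes, had 7121, 7278 and 8174 normalized counts with DMSO and 13492, 12316 and 11352 with SKI-II, a log2 fold change of 0.72 (SE 0.13, adjusted p = 0.00242 by edgeR). Its groups were far apart, and its pseudogene Cd63-ps held a mean of only 26.8 normalized counts with DMSO. Cln3, the multi-pass protein mutated in juvenile Batten disease, had 688, 583 and 514 normalized counts with DMSO and 1139, 1036 and 807 with SKI-II, a log2 fold change of 0.74 (SE 0.17, adjusted p = 0.00643 by edgeR). Its exons share 442 bases with Apobr on the opposite strand, which had a log2 fold change of -0.01.

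Slc17a5, sialin, which exports sialic acid from the lysosome, had 633, 706 and 781 normalized counts with DMSO and 515, 502 and 411 with SKI-II. It fell by 0.57 on the log2 scale (SE 0.15, adjusted p = 0.0121 by edgeR), and the groups did not overlap. The cystine exporter Ctns (0.24), Laptm5 (0.01) and Scarb2 (-0.04), a membrane protein also known as LIMP-2, did not pass the test, the values being log2 fold changes. Laptm5, a protein of blood cells, had 17191, 17375 and 18152 normalized counts with DMSO and 19125, 17239 and 16788 with SKI-II, with overlapping groups. The median over the 9 membrane proteins was 0.24. In a further list of 20 lysosomal membrane proteins, 8 rose and 2 fell, with a median of 0.40. The largest rises in it were those of Slc11a1, a metal transporter of phagosomes (log2 fold change 1.14, adjusted p = 0.000237 by edgeR), Laptm4b (0.89) and Mfsd8 (0.86), and the falls were those of Sidt2 (-1.55) and the cation channel Tpcn1 (-0.66).

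**Figure D4:**
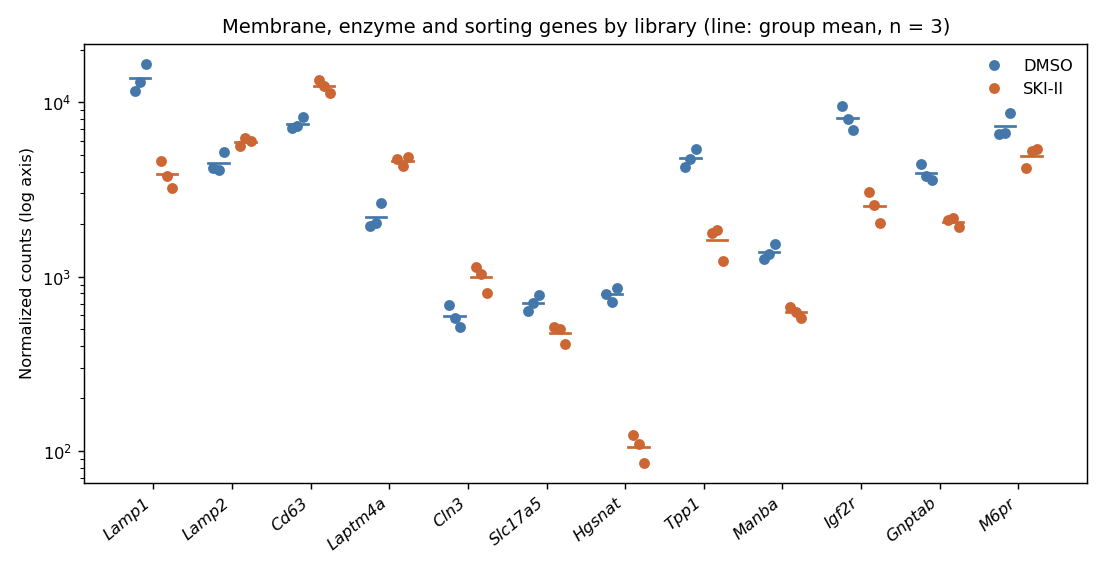
Each point is the normalized count (log axis) of a membrane protein, enzyme or sorting gene in a library, with DMSO in blue and SKI-II in orange, and lines mark the mean of 3 libraries. Lamp1, Hgsnat, Tpp1, Manba, Igf2r, Gnptab, M6pr and Slc17a5 lie lower with SKI-II, and Lamp2, Cd63, Laptm4a and Cln3 lie higher, with no overlap for any of the 12.

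Among the enzymes, 9 of 14 fell, 3 of them past a log2 fold change of -1, and the median was -0.48. None rose by edgeR, DESeq2 or limma-voom, with 1 above 0 at an unadjusted p below 0.05 by edgeR. Hgsnat, the membrane-bound acetyltransferase of heparan sulfate breakdown, had 799, 711 and 860 normalized counts with DMSO and 123, 110 and 86 with SKI-II. It was 7.47-fold lower, and its log2 fold change of -2.90 was the lowest of the 41 genes (SE 0.17, adjusted p = 7.65e-06 by edgeR). Tpp1, tripeptidyl peptidase 1, had 4266, 4697 and 5364 normalized counts with DMSO and 1786, 1845 and 1225 with SKI-II, a log2 fold change of -1.56 (SE 0.17, adjusted p = 0.000121 by edgeR). Manba, lysosomal β-mannosidase, had 1270, 1348 and 1547 normalized counts with DMSO and 668, 626 and 582 with SKI-II, a log2 fold change of -1.15 (SE 0.13, adjusted p = 0.000136 by edgeR). In each of these 3 genes the highest SKI-II library was below the lowest DMSO library.

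The enzymes can be set out by what they digest, a grouping chosen after their values were seen. Of the 6 that act on heparan sulfate, 5 fell: beside Hgsnat these were Idua, α-L-iduronidase (log2 fold change -0.78), Ids, iduronate 2-sulfatase (-0.50), Gusb, β-glucuronidase (-0.46), and Naglu, α-N-acetylglucosaminidase (-0.40). The sulfamidase Sgsh was the exception, with 607, 647 and 526 normalized counts with DMSO and 680, 674 and 721 with SKI-II. Its groups did not overlap, but its log2 fold change of 0.22 had an adjusted p of 0.209 by edgeR. Sgsh shares 955 exon bases with Card14 on the opposite strand, which fell by 1.77 on the log2 scale. Of the 4 that trim the sugar chains of glycoproteins, Manba and Man2b1, lysosomal α-mannosidase (-0.53), fell, while the fucosidase Fuca1 (-0.35) and the sialidase Neu1 (0.12) did not pass the test.

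Ppt1, palmitoyl-protein thioesterase 1, which removes fatty acids from proteins, fell with the peptidase Tpp1, at a log2 fold change of -0.79 (SE 0.15, adjusted p = 0.00301 by edgeR). Its exons share 129 bases with Cap1 on the opposite strand, a gene of 20512 mean normalized counts with DMSO that fell by 0.46 on the log2 scale. The enzymes of glycogen and neutral lipid did not pass the test. Lipa, lysosomal acid lipase, had 8517, 8701 and 11464 normalized counts with DMSO and 11685, 12373 and 13419 with SKI-II, with all SKI-II libraries above and an adjusted p of 0.0740 by edgeR. Its 95% interval on the log2 scale was 0.04 to 0.73. Gaa, acid α-glucosidase, had 2645, 3331 and 3367 normalized counts with DMSO and 4679, 2935 and 2993 with SKI-II, so that only the first SKI-II library lay above the DMSO ones. Its log2 fold change was 0.18, and -0.08 without that library. The calls of Gusb, Ids and Naglu were each lost in at least 1 of the fits that left out a library, with adjusted p of up to 0.0567, 0.0864 and 0.145.

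The summed length-scaled level of the 14 enzymes was 535, 554 and 642 with DMSO and 462, 446 and 464 with SKI-II, without overlap. In a further list of 25 lysosomal hydrolases and their cofactors, 11 fell and 2 rose, with a median log2 fold change of -0.35. The largest falls in it were those of Arsb, arylsulfatase B (-1.99, adjusted p = 6.9e-06 by edgeR), Plbd2 (-1.74) and Gm2a, the GM2 activator protein (-1.59). Aga, aspartylglucosaminidase, was among those that rose (0.49).

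All 3 genes of mannose 6-phosphate sorting fell, with a median log2 fold change of -0.92. Igf2r, the large receptor that also binds insulin-like growth factor 2, had 9513, 8002 and 6929 normalized counts with DMSO and 3044, 2584 and 2029 with SKI-II. It was 3.19-fold lower, at a log2 fold change of -1.68 (SE 0.18, adjusted p = 0.000103 by edgeR). Gnptab, a subunit of the phosphotransferase that makes the mannose 6-phosphate tag, had 4420, 3760 and 3558 normalized counts with DMSO and 2113, 2156 and 1923 with SKI-II, a log2 fold change of -0.92 (SE 0.12, adjusted p = 0.000417 by edgeR). The highest SKI-II library was below the lowest DMSO library in both genes. M6pr, the small cation-dependent receptor, had 6598, 6698 and 8648 normalized counts with DMSO and 4177, 5262 and 5384 with SKI-II. It fell by 0.57 on the log2 scale (SE 0.16, adjusted p = 0.0176 by edgeR), a call lost without DMSO replicate 3 or SKI-II replicate 1, with an adjusted p of up to 0.0508.

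In the further list of 11 genes of lysosomal sorting and retrieval, 4 fell and none rose by edgeR (5 below 0 and 0 above 0 at an unadjusted p below 0.05), with a median log2 fold change of -0.10. The largest falls were those of the sorting receptor Sort1 (-1.02, adjusted p = 0.000141 by edgeR), Nagpa, the enzyme that uncovers the mannose 6-phosphate tag (-0.73), and the retromer subunit Vps35 (-0.47). Across these further lists, the calls of Aga, Laptm4b, Mfsd8, Oxr1, Ccdc115, Dmxl1, Atp6v1g2 and Vps35 were lost in at least 1 of the fits that left out a library. Those of Atp6v0a2, Atp6v0d2, Vma21, Slc11a1, Sidt2, Tpcn1, Arsb, Plbd2, Gm2a, Sort1 and Nagpa were kept in all 6.

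**Figure D5:**
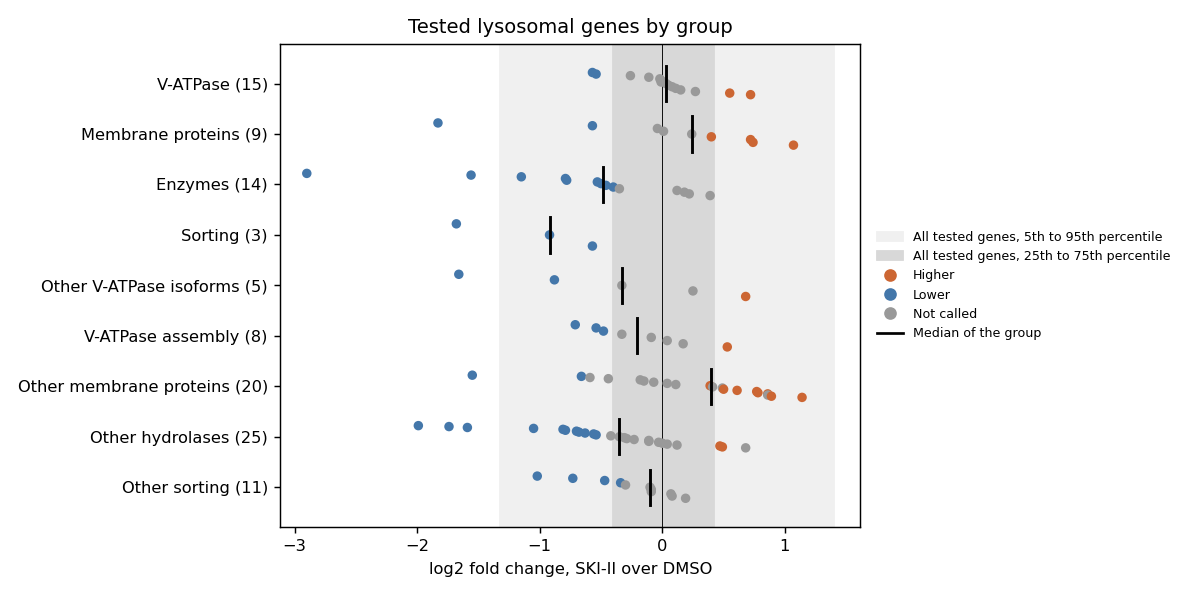
Each point is the log2 fold change (x axis, SKI-II over DMSO) of a tested gene of the group at the left, colored by its call, with the group's median as a black line and percentiles of all genes tested in gray. The enzymes and further hydrolases have medians of -0.48 and -0.35, and the membrane proteins and further membrane proteins medians of 0.24 and 0.40.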

How the data were processed

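The deposited table used here holds the authors' raw counts of reads per Ensembl gene, for 3 SKI-II and 3 DMSO libraries of poly(A) RNA. The submitters' processing notes name Trimmomatic 0.36, STAR 2.5.2b, featureCounts, Subread 1.5.2 and DESeq2. For the genome build, annotation release and strandedness, the sources used here give nothing, and reads of genes that overlap on opposite strands may not be told apart. GENCODE M21 on GRCm38 named 49056 of the 49315 genes and gave exon lengths.

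Genes were tested with the quasi-likelihood test of edgeR 4.0.16 in R 4.3.3 (TMM scaling, filterByExpr at its default minimums, 10 for the count and 15 for the total, Benjamini-Hochberg adjustment over 12274 genes). Normalized counts are scaled to a library of 16042438 counts. By rule, per-library values are given in each group for the called members with the largest changes, up to 3 in each direction. Those of Lamp2, Atp6v1a, Atp6v1h, Laptm5, Sgsh, Lipa, Gaa, Tcirg1 and Atp6v0d2, and marker sums without Lyz2 or Atp6v0d2, were added after their values were seen. For the other lists, the same number of called genes is named. A result that this rule selects is not reported here. On simulated counts for this comparison, edgeR recovered 97.0% of 200 genes changed by a log2 fold change of 2, larger than most changes reported here, with 8 false calls among 12094 genes; smaller changes were not simulated. Alternatives were DESeq2 1.42.0, limma-voom (limma 3.58.1), other scalings and filters, a replicate block and each library left out. Figures were drawn with matplotlib 3.10.9. The members and lists were chosen with earlier results of these data known.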

Additional observations from a re-analysis of the deposited data

How the results depend on the processing

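With DESeq2, limma-voom, RLE scaling, no filter on low counts and at least 10 counts in every library, all 41 genes kept their direction and their side of the threshold. With library size alone, Fuca1 (adjusted p = 0.0438 by edgeR) and Lipa (0.0365) also passed, so that 1 enzyme in place of 0 rose. Whether the replicate numbers pair the libraries is not known. The deviations of same-numbered libraries correlated at 0.27, -0.04 and 0.54, the last being the highest of all pairs. DMSO replicate 1 correlated best with SKI-II replicate 2 (0.41). Deviations from a mean of 3 libraries depend on each other, so these values cannot decide it. With a replicate block, 2765 genes rose and 2819 fell, Fuca1 (0.0201) and Lipa (0.0149) also passed, and 7 members rose, among them 1 enzyme, and 17 fell. Leaving out each library, 3 to 7 members rose (3 without DMSO replicate 2), 14 to 17 fell, 0 to 2 V-ATPase genes, 3 to 4 membrane proteins and 0 to 1 enzymes rose, and 1507 to 2227 of all genes rose. In these fits the log2 fold changes of 10 genes that had not passed the test changed sign: Atp6v0c (-0.10 to 0.02), Atp6v0d1 (-0.21 to 0.01), Atp6v1a (-0.03 to 0.21), Atp6v1c1 (-0.10 to 0.07), Atp6v1d (-0.18 to 0.08), Atp6v1e1 (-0.06 to 0.17), Atp6v1f (-0.09 to 0.23), Laptm5 (-0.05 to 0.05), Gaa (-0.08 to 0.30) and Scarb2 (-0.13 to 0.08). Without division by length, the shares of Atp6v1g1 and Atp6v1g2 in subunit G changed by 1.12 and -1.12 percentage points, against 0.515 and -0.515 with it. The causes were not tested.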
